A study of Mus musculus with 2 samples.

Results

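The nuclear genes for the subunits of oxidative phosphorylation were followed in lung endothelial cells 6 h after an injection of melanoma cells or PBS. Members were chosen by their symbols, with earlier results of these data known. The symbols started with Ndufa, Ndufb, Ndufc, Ndufs, Ndufv, Uqcr, Cox4 to Cox8 or Atp5, or were Sdha to Sdhd, without the Ndufaf assembly factors. This gave 85 of the 31053 genes counted. They were 36 genes of complex I, 4 of complex II, 8 of complex III, 20 of complex IV and 17 of complex V, where Ndufa4 and Ndufa4l2 were placed with complex IV.

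Oxidative phosphorylation passes electrons from NADH and succinate along complexes I to IV to oxygen and uses the proton gradient so built to make ATP in complex V. All these complexes except complex II mix subunits from nuclear genes with a few made inside the mitochondrion, so the nuclear and the mitochondrial genome both supply parts. Endothelial cells are known to draw much of their ATP from glycolysis and to use respiration for biosynthesis and signalling as well. In the lung, general capillary cells (gCap) keep and renew the capillary bed, and aerocytes (aCap) are large thin cells that face the air space.

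Both libraries came from wild-type C57BL/6 mice, with the lungs of 2 mice pooled for each, and held PECAM1-positive sorted cells sequenced as 10x Genomics 3′ single-cell libraries. Control mice received PBS by the tail vein, and the mice of the metastatic library received 200000 B16-F10 cells each, a mouse skin melanoma line that seeds the lung. Both groups were killed 6 h after injection. Each group is therefore 1 library, differences between them have no replicate check, no test was made, and every interval below is a 95% interval for the counting of unique molecular identifiers (UMIs) only.

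Barcodes with 1000 to 5000 genes and under 20% mitochondrial UMIs were kept, 7134 in the control and 6466 in the metastatic library, of which 16 barcode sequences passed in both. A class needed 2 or more of its markers (aerocyte Ednrb, Fibin and Tbx2, vein Slc6a2, Car8 and Bst1, artery Gja5, Bmx and Fbln5, gCap Gpihbp1, Aplnr, Kit and Lpl), and barcodes that met several rules (1004 and 825) were set aside. This left 5020 control and 4519 metastatic gCap barcodes, 605 and 495 aerocyte, 99 and 139 vein and 12 and 22 artery barcodes. Median depth was 5951 and 6275 UMIs per gCap barcode, 7501 and 7486 per aerocyte and 7346 and 7996 per vein barcode. Levels are given as UMIs per 1000000 UMIs of the class (CPM), and since a 3′ library counts each transcript once, no length correction was made. The 7 pan-endothelial markers (Pecam1, Cdh5 and others) summed to 6531 and 6975 CPM in gCap barcodes. They summed to 10588 and 10998 CPM in aerocyte and 5068 and 4608 CPM in vein barcodes. In the leukocyte barcodes defined below they summed to 243 and 264 CPM, although all 7 were detected there as well.

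Taken as a sum, the members held nearly the same share of the transcriptome with and without melanoma cells. In gCap barcodes they made up 1.51% of UMIs in the control library (485844 UMIs, interval 1.509 to 1.518%) and 1.54% after melanoma injection (464987 UMIs, 1.531 to 1.540%). The log2 ratio of metastatic over control was 0.02 (0.01 to 0.03). Aerocyte barcodes were similar, at 1.48% and 1.51% (log2 0.03, 0.01 to 0.04). Vein barcodes lay above both capillary classes, at 1.67% in the control and 1.79% in the metastatic library (log2 0.10, 0.07 to 0.13). Artery barcodes gave 1.61% and 1.68%, with an interval of the log2 ratio from -0.04 to 0.16 that holds 0. They also held RNA of other cells. Mural markers had 1097 CPM in control and 43.4 CPM in metastatic, beside 1097 and 744 CPM of artery markers. Leukocyte markers had 14.1 and 601 CPM there and lymphatic markers 42.2 and 335 CPM. The part of other cells in the artery values was not tested. Leukocyte barcodes of the same libraries, with 3 or more of 7 leukocyte markers and no endothelial class, gave 1.60% and 1.72% (132 and 141 barcodes). The sort was on PECAM1, so barcodes with leukocyte markers lie outside its labelled endothelial type.

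Single barcodes spread widely around the library values, in part because each holds few member UMIs. The share per gCap barcode ran from 1.13% at the 10th percentile to 1.95% at the 90th in the control library, around a median of 1.51%, and from 1.14% to 1.99% around 1.54% in the metastatic library. The mean gCap barcode held 96.8 member UMIs in the control and 103 in the metastatic library, among 6395 and 6703 UMIs in all.

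**Figure D1:**
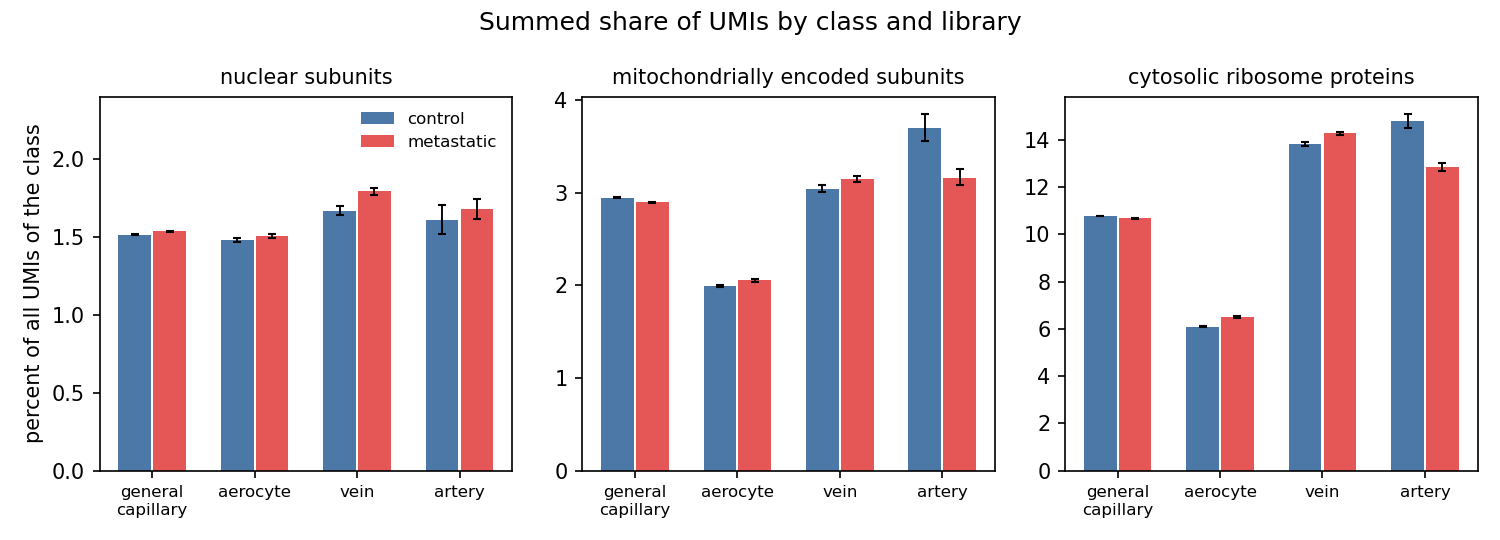
Percent of all UMIs of a class (y axis, each panel from 0) taken by the 85 nuclear members, by the 13 mitochondrially encoded subunits and by the cytosolic ribosomal proteins, in the control and metastatic libraries. Bars are single libraries and error bars are exact Poisson intervals. The nuclear members stay between 1.48% and 1.79% over the 4 classes, and each set is lowest in aerocytes.

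Across the members of gCap barcodes, the highest levels were those of Cox4i1 (560 CPM in control, 571 in metastatic), a subunit that joins complex IV early in its assembly, Cox8a (534 and 521), Cox7c (463 and 471), Cox6c (408 and 414) and the ATP synthase stalk gene Atp5h (391 and 421). The 10 highest members held 28.2% of the member UMIs in either library. In both libraries 61 members stood above 100 CPM and 9 under 10 CPM. Among core subunits of complex I, levels were lower than those of many accessory subunits, with Ndufs7 at 125 and 131 CPM, Ndufv2 at 112 and 110, Ndufs3 at 83.6 and 81.7, Ndufv1 at 79.6 and 78.3, Ndufs8 at 54.0 and 56.5 and Ndufs1 at 40.0 and 37.5. None of these passed a 1.2-fold difference between the libraries.

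The sister genes of complex IV differed widely in level. Cox4i2, the lung isoform of subunit 4 that is tied to oxygen sensing in the pulmonary circulation, had 20.1 CPM (644 UMIs) in control and 17.4 CPM (526 UMIs) in metastatic gCap barcodes, far under Cox4i1. In aerocytes it had 8.74 CPM (39 UMIs) and 15.7 CPM (58 UMIs), and in vein barcodes 0 and 1 UMI were seen. Ndufa4l2, a hypoxia-inducible relative of Ndufa4, had 8.60 and 7.82 CPM in gCap against 389 and 391 CPM for Ndufa4. The heart and muscle isoforms were near 0 in gCap barcodes, with 18 and 33 UMIs of Cox7a1, 62 and 31 of Cox6a2 and 3 and 7 of Cox8b. The germ-line isoforms were as low, with 30 and 40 UMIs of Cox6b2, 1 and 0 of Cox8c and 0 of Cox7b2 in both libraries. Of the 3 genes that encode the same mature c-ring subunit of ATP synthase, Atp5g2 led with 326 and 319 CPM, before Atp5g1 with 153 and 159 and Atp5g3 with 122 and 127. Cox6a1 (291 and 288 CPM), Cox6b1 (278 and 294) and Cox7a2 (363 and 373), the isoforms found in most tissues, were abundant in both libraries.

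**Figure D2:**
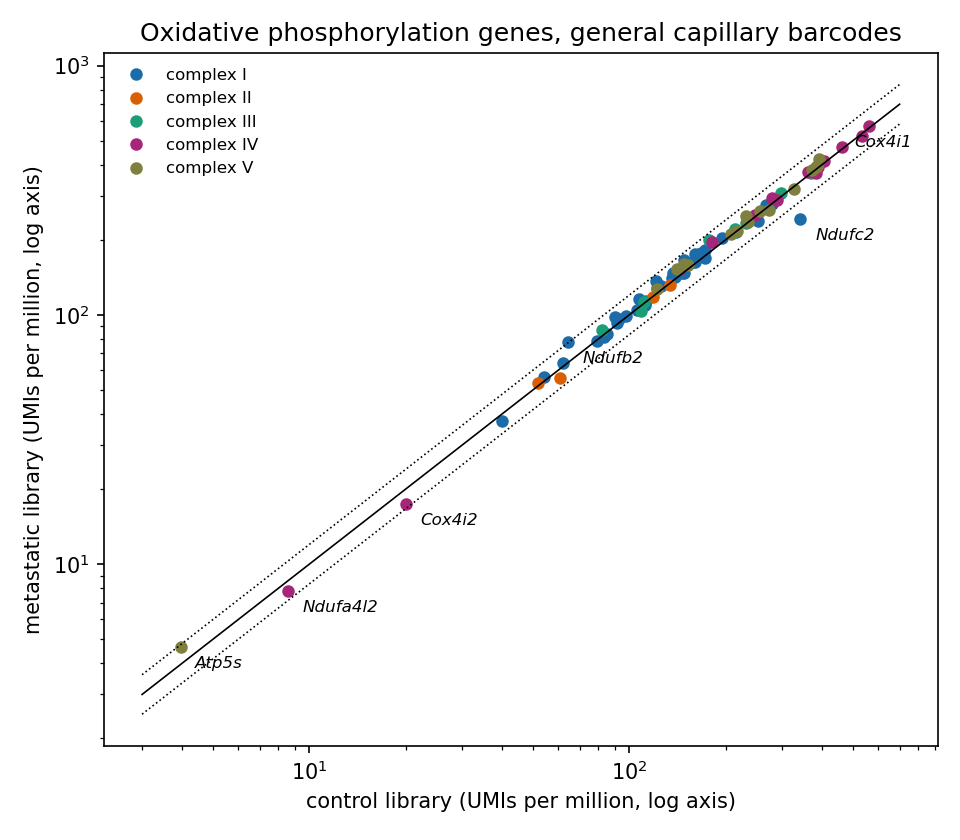
Level of each member with 100 or more UMIs over both libraries in gCap barcodes, control (x axis) against metastatic (y axis), both in CPM on log axes, coloured by complex. The solid line marks equality and the dotted lines a 1.2-fold difference; 76 of 78 members lie between the dotted lines, with Ndufc2 below and Ndufb2 above.

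Gene by gene, 78 of the 85 members had 100 or more UMIs over both libraries in gCap barcodes, 5 had fewer and 2 were at 0 (Cox7b2 and a second Atp5o entry, whose annotated span overlaps the Atp5o gene counted at 148 and 160 CPM). The median log2 ratio of metastatic over control was 0.03 over the 78 members and 0.02 over all 11220 genes with as many UMIs. The middle 95% of the members spanned -0.14 to 0.18, and that of all genes -0.51 to 0.66. Low counts widen such a range, and it was not worked out for genes with 1000 or more UMIs alone. It was -0.07 to 0.19 for cytosolic ribosomal proteins and -0.04 to 0.11 for citric acid cycle genes. For mitochondrial ribosome genes it was -0.16 to 0.32 and for the proteasome -0.19 to 0.46. One member, 1 of 78, was past 1.2-fold higher, where 13.7% of all genes were, and 1 was past 1.2-fold lower, where 7.91% were. Because low counts pass a fold limit more easily, the same was counted over the 6960 genes with 1000 or more UMIs, a limit set after the data were seen: 1 of 76 members was higher against 8.79% of genes, and 1 lower against 5.23%. The complexes lay close together, with medians of 0.03 for complex I, -0.02 for complex II, 0.04 for complex III, 0.02 for complex IV and 0.03 for complex V.

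Ndufc2, an accessory subunit in the membrane arm of complex I, was the member that stood apart. Its gCap level was 343 CPM (11008 UMIs, 337 to 349) in the control and 243 CPM (7351 UMIs, 237 to 248) after melanoma injection, with a log2 ratio of -0.50 (-0.54 to -0.46). These intervals lie far from each other. The next lowest member, Cox4i2, had a log2 ratio of -0.21 (-0.38 to -0.04). That ratio turned to 0.09 without barcodes with markers of other cell types (1391 control and 2211 metastatic gCap barcodes left). In vein barcodes Ndufc2 had 415 CPM (320 UMIs) and 301 CPM (349 UMIs), a log2 ratio of -0.46 (-0.69 to -0.24). In aerocytes it had 192 CPM (857 UMIs) and 177 CPM (651 UMIs), and the interval of the log2 ratio (-0.12), -0.27 to 0.03, holds 0. With barcodes of several classes placed by the order aerocyte, vein, artery, gCap, the aerocyte value was -0.36, but this wider class adds barcodes that also met another class rule. Without barcodes with markers of other cell types (197 control and 265 metastatic aerocyte barcodes left) the aerocyte value was -0.26, and with equal weight per barcode it was -0.06. Barcodes that met several class rules gave 295 and 216 CPM, and leukocyte barcodes 111 CPM (107 UMIs) and 114 CPM (117 UMIs). The lower level was thus seen in gCap, vein and mixed barcodes and not in leukocyte barcodes, where the interval of the log2 ratio was -0.35 to 0.43. Whether the classes differ from each other was not tested.

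The gene lies on chromosome 7 at 97400003 to 97407802 (GRCm38, plus strand), in 3 exons with no overlapping gene in the count table. Of the 6 other counted genes within 100000 bases with 100 or more UMIs in gCap barcodes, named here after their values were seen, Thrsp on the opposite strand had 617 and 400 UMIs (log2 -0.54, -0.73 to -0.36) and Gab2, a signalling adaptor, 1227 and 897 UMIs (-0.37, -0.49 to -0.24). Alg8, the nearest gene before Ndufc2, had 84 and 59 UMIs with an interval of -0.93 to 0.07, and the intervals of Usp35 (51 and 49 UMIs), Kctd21 (82 and 72 UMIs) and Ints4 (383 and 394 UMIs) held 0 as well.

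To show the sequence in front of 4 genes that the results turn on (Ndufc2, and 3 described further on for their class differences), the window from 250 bases before to 50 bases after the annotated start is printed 5′ to 3′ from RefSeq (GRCm38.p6). Capitals mark matches to 4 short motifs searched on both strands: GCGCATGC (NRF1), CCGGAAG (ETS factors such as GABP), AAGATGGC (YY1) and CACGTG (E-box), where CACGTG reads the same on both strands and NRF1 matches may overlap each other.
Ndufc2, chr7:97399753-97400052, plus strand: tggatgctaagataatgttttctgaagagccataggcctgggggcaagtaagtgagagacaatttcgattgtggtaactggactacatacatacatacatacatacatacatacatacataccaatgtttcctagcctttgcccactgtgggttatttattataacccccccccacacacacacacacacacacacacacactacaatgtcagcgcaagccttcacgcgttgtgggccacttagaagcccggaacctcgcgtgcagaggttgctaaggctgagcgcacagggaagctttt
Cox7a2l, chr17:83514284-83514583, minus strand: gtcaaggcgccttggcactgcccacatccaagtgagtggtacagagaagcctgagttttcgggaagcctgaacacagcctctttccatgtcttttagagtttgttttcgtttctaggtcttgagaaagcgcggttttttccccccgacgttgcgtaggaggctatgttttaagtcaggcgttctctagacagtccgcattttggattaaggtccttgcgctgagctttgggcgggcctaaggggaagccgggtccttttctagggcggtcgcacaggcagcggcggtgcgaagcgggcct
Ndufa8, chr2:36049289-36049588, minus strand: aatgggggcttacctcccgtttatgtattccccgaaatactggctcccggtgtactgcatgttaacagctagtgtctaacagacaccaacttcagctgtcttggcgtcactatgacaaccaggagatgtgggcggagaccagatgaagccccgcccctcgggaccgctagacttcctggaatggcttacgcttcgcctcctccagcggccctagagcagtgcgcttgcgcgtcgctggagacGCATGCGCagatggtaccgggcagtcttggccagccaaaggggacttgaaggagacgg
Sdhb, chr4:140961021-140961320, plus strand: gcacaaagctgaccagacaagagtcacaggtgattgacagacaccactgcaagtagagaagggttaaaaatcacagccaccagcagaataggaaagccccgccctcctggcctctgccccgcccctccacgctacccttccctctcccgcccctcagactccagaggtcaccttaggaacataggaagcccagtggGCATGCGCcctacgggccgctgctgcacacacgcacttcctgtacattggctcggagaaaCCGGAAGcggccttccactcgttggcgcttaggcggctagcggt
The Cox7a2l window lies at the RefSeq start, inside the GENCODE M21 span of the gene (chromosome 17, 83501918 to 83517330), whose outer start was not searched. No match stood in the windows of Ndufc2 and Cox7a2l, the NRF1 letters stood in those of Ndufa8 and Sdhb, and Sdhb held an ETS match as well. NRF1 and GABP are textbook regulators of respiratory genes. Windows were found for 67 members. The NRF1 letters stood in 10 of these (14.9%), against 6.38% of 8688 genes with 100 or more UMIs in gCap barcodes and 3.05% of 27025 genes in all. YY1 letters stood in 9 (13.4%, against 5.66% and 3.19%), ETS letters in 16 (23.9%, against 21.6% and 9.93%) and the E-box in 5 (7.46%, against 12.0% and 8.09%). These are counts of letters and not of bound sites.

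At the other end, Ndufb2, another membrane arm subunit of complex I, had 64.4 CPM in control and 77.8 CPM in metastatic gCap barcodes (log2 0.27, 0.19 to 0.36). It overlaps a predicted gene, Gm42420, on the same strand, so reads may be shared. After TMM scaling its log2 ratio was 0.25 and 0 members were past 1.2-fold higher, and without barcodes with markers of other cells it was 0.24. The next highest were Atp5s (127 and 141 UMIs, 0.23, -0.12 to 0.59), the complex III subunit Uqcrq (177 and 201 CPM, 0.18), Ndufa12 (121 and 137 CPM, 0.18) and Ndufa13 (148 and 166 CPM, 0.16). The lowest after Ndufc2 and Cox4i2 were Ndufa4l2 (-0.14, -0.39 to 0.12), the membrane anchor Sdhd (60.7 and 55.7 CPM, -0.12) and Ndufs1 (-0.09, -0.21 to 0.02). Sdha, Sdhb and Sdhc, the remaining subunits of succinate dehydrogenase, had log2 ratios of -0.01, -0.03 and 0.03.

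**Figure D3:**
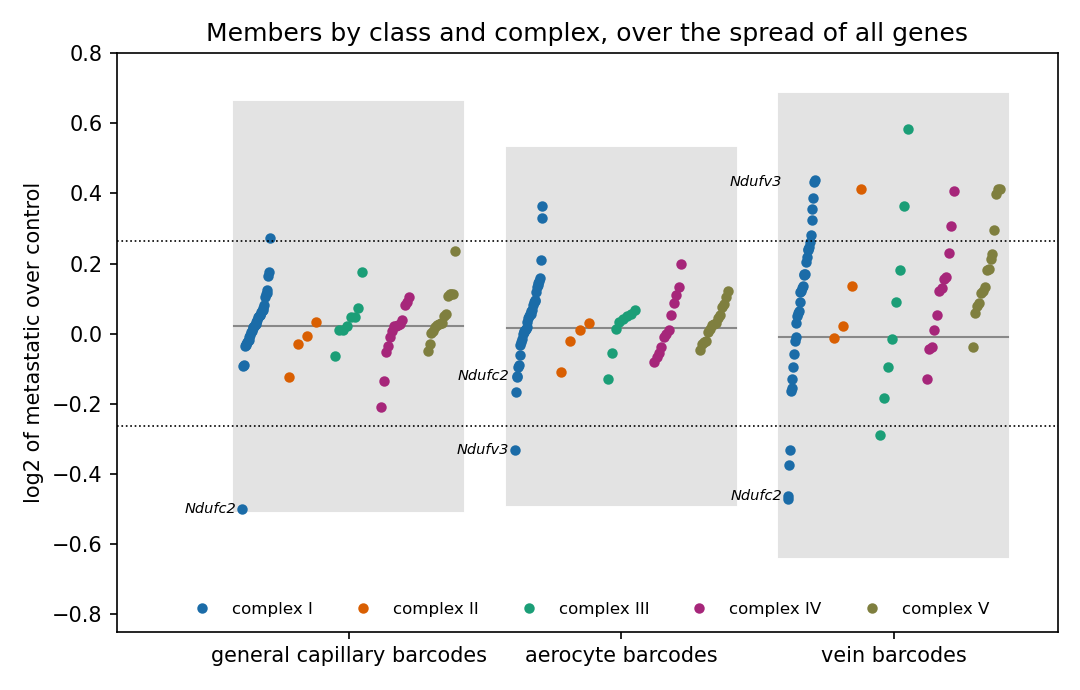
Log2 of metastatic over control for every member with 100 or more UMIs in a class (y axis), grouped by class and coloured by complex. Grey boxes span the middle 95% of all genes with as many UMIs, grey lines their median and dotted lines a 1.2-fold difference; members sit in a narrow band in gCap and aerocyte barcodes and spread more in the smaller vein class.

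In aerocytes 75 members had 100 or more UMIs, with a median log2 ratio of 0.03 (all 7568 genes 0.01). Past 1.2-fold higher were 2 of 75, against 12.1% of all genes: Ndufa10 (83.1 and 107 CPM, 0.36, 0.16 to 0.57) and Ndufa1 (87.8 and 110 CPM, 0.33, 0.13 to 0.53). Past 1.2-fold lower was 1 of 75, against 10% of all genes: Ndufv3, a small subunit of the NADH-oxidizing module (109 and 86.6 CPM, -0.33, -0.54 to -0.12). Ndufs7 came next among the high values and Uqcrc2 was among the lowest, both within 1.2-fold. With barcodes of several classes placed in the listed order, Ndufa10, Ndufa1 and Ndufv3 had 0.13, 0.07 and -0.06, so these differences were not seen in the wider class. That class (1398 and 1106 barcodes) adds barcodes that also met another class rule, and the gCap values of these members were -0.02, 0.02 and 0.11. It therefore cannot show whether aerocytes alone differ. Among the 54 members with 1000 or more UMIs, 0 were past 1.2-fold in either direction, beside 4.43% of genes higher and 6.81% lower.

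Vein barcodes held more members past the limit, on fewer UMIs. Of 74 members, 15 were past 1.2-fold higher, where 18.1% of all 3372 genes were, and 5 were lower, where 18.8% were, so the lower share fell short of the background and the higher share of the members was close to it. The median of the members was 0.13 and that of all genes -0.01. The highest were Uqcrq (166 and 248 CPM, 0.58, 0.28 to 0.89), Ndufa10 (0.44, -0.04 to 0.93) and Ndufv3 (0.43, 0.01 to 0.87), and the lowest Ndufa9 (59 and 64 UMIs, -0.47), Ndufc2 and Ndufv1 (-0.37, -0.86 to 0.11). Only 10 intervals of the 74 lay wholly above 0 and 1, that of Ndufc2, wholly below it. The share of all genes with such intervals was not counted.

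The metastatic vein barcodes also held RNA of other cells: epithelial markers had 144 CPM in control and 4067 CPM in metastatic, with 4612 of 4717 UMIs in 1 barcode, red cell markers 668 and 2845 CPM, with 3045 of 3299 UMIs in 1 barcode, and leukocyte markers 10.4 and 275 CPM, with 5 and 6 of 7 detected. Without barcodes that held 2 or more markers of another cell type (34 control and 71 metastatic vein barcodes left), the summed log2 ratio was 0.08 and 12 of 58 members were higher and 2 lower, where 21.7% and 17.4% of all genes were. When barcodes of several classes were placed in the listed order (259 and 316 vein barcodes), the summed log2 ratio was 0.06 and 1 of 75 members was higher and 2 lower, where 15.8% and 14.4% of all genes were, so most of the 20 vein differences were not seen in the wider class. That class adds barcodes that also met another class rule, so it cannot show whether veins alone differ. The part of other cells in these values was not tested.

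More members were past the limit between aerocytes and gCap than between the libraries within either class. Summed members were lower by little in aerocytes than in gCap (log2 -0.03 in both libraries). Yet the median gene was 0.11 higher in aerocytes in both libraries on this scale. After TMM scaling, which assumes that most genes do not change, the members lay at -0.15 and -0.14. Of all genes, 57.5% in control and 57.8% in metastatic were past 1.2-fold in this contrast, so the assumption may not hold. Of the 75 members counted in both classes, 37 were higher in aerocytes in both libraries, 30 lower in both and 8 differed in direction, and the log2 ratios of the libraries correlated across members with r = 0.91 as a description (both libraries share barcode rules and chemistry). By library, 40 members were above 0 in control and 42 in metastatic, against 4544 and 4496 of all 7542 genes. Past 1.2-fold in both libraries, 9 were higher, where 29.1% of all 7542 genes were, and 7 lower, where 17.4% were. Over genes with 1000 or more UMIs, 8 of 54 members were higher against 38.6% of 1588 genes, and 6 lower against 18.6%.

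The 9 higher members were Sdhb, Ndufb6, Ndufa9, Uqcrq, Cox5a, Atp5g1, Ndufa11, Ndufb4 and Ndufv2. Sdhb, the iron-sulfur subunit of succinate dehydrogenase, had 188 and 192 CPM in aerocytes against 134 and 131 CPM in gCap (log2 0.48, 0.38 to 0.59, in control and 0.54, 0.43 to 0.66, in metastatic). Ndufb6, in the membrane arm of complex I, followed with 0.47 and 0.50, Ndufa9, near the ubiquinone site, with 0.46 and 0.40, and Cox5a with 0.39 and 0.40. Sdha, which works in the same enzyme as Sdhb, had log2 ratios of -0.02 and -0.01, Sdhc -0.01 and -0.07 and Sdhd 0.09 and 0.11, so the higher level was seen for 1 of the 4 complex II genes.

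The 7 lower members were Cox7a2l, Ndufc2, Atp5g2, Atp5j, Ndufa6, Ndufa8 and Uqcrh. Cox7a2l, a factor that joins complexes III and IV into supercomplexes, had 176 CPM (786 UMIs) and 202 CPM (745 UMIs) in aerocytes against 384 and 370 CPM in gCap, a log2 ratio of -1.13 (-1.23 to -1.02) in control and -0.87 (-0.98 to -0.77) in metastatic. With barcodes of several classes placed in the listed order, which adds barcodes with gCap markers to the aerocytes, the values were -0.58 and -0.51, and those of Sdhb 0.33 and 0.28. Its close relative Cox7a2, a structural subunit of complex IV, had 0.07 and 0.04, and Cox7c 0.12 and 0.18. Ndufc2 was lower by value in aerocytes at -0.84 (-0.94 to -0.74) in control and at -0.46 (-0.58 to -0.34) in metastatic, and at -0.49 and -0.36 in the wider class. Atp5g2 had -0.64 and -0.57 while its sisters Atp5g1 and Atp5g3 had 0.36 and 0.28, and 0.19 and 0.15. In aerocytes the sister genes lay close together, with Atp5g2 at 209 and 215 CPM and Atp5g1 at 197 and 194 CPM. Atp5j, a stalk subunit of ATP synthase, had -0.58 and -0.59 and Ndufa6 -0.56 and -0.48.

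**Figure D4:**
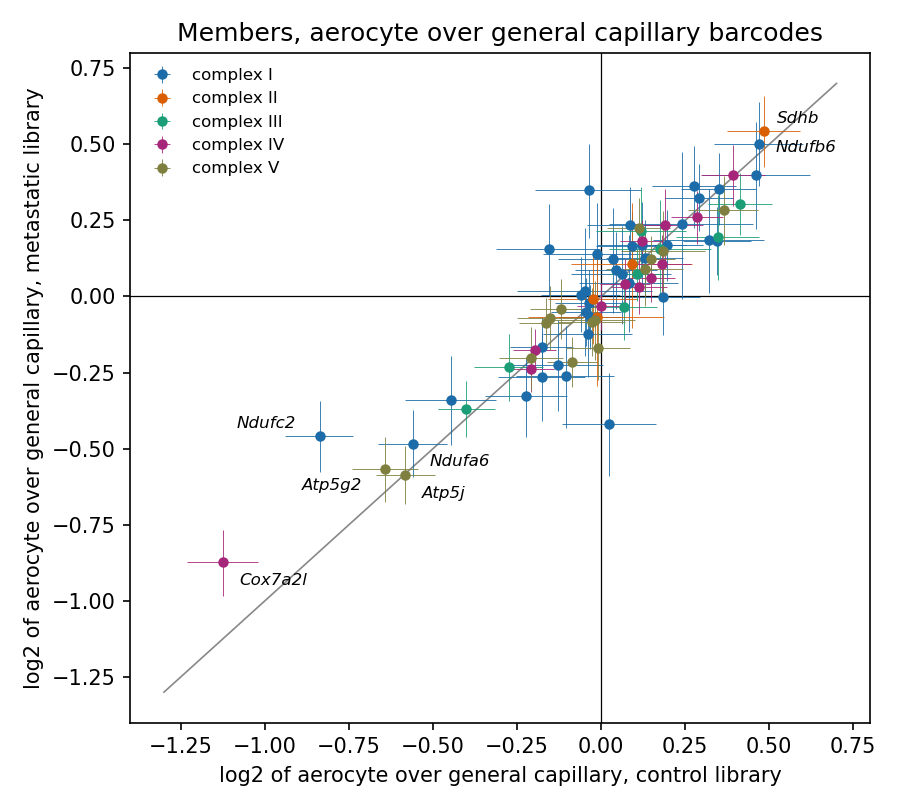
Log2 of aerocyte over gCap level for 75 members, control library (x axis) against metastatic library (y axis), with exact 95% intervals as bars and colours for complexes. The grey diagonal marks equal values; members fall along it from Cox7a2l at -1.13 and -0.87 to Sdhb at 0.48 and 0.54.

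Vein barcodes went the opposite way for several of these genes. Past 1.2-fold in both libraries, 14 of 74 members were higher in veins than in gCap, where 15.8% of all 3365 genes were, and 1 was lower, where 19.9% were. The 1 lower member was Sdhb (104 and 105 CPM, log2 -0.37 and -0.32), which was the highest in aerocytes. Ndufa8, an accessory subunit of complex I on the intermembrane side, picked here after its values were seen, was highest, with 284 CPM (219 UMIs) and 266 CPM (308 UMIs) against 149 and 147 CPM in gCap (log2 0.93, 0.73 to 1.13, and 0.85, 0.68 to 1.02), and 109 and 116 CPM in aerocytes. Cox7a2l had 492 and 479 CPM in veins (0.36 and 0.37) and Cox6c 566 and 549 CPM (0.47 and 0.41). Of the 7 members lower in aerocytes, 5 were also past the limit in veins in the other direction (Atp5g2, Cox7a2l, Ndufa8, Ndufc2 and Uqcrh), and both contrasts share the gCap barcodes. The share of all genes lower in aerocytes that were also higher in veins was not counted, so the 5 of 7 has no background beside it. The sum over all members was 0.14 higher in veins than in gCap in the control and 0.22 higher in the metastatic library, 48 of 74 members were higher in both libraries, 4 lower in both and 22 differed in direction. By library, 53 members were above 0 in control and 65 in metastatic, against 1448 and 1417 of all 3365 genes. The log2 ratios of the libraries correlated less closely across members than for aerocytes (r = 0.57, as a description).

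**Figure D5:**
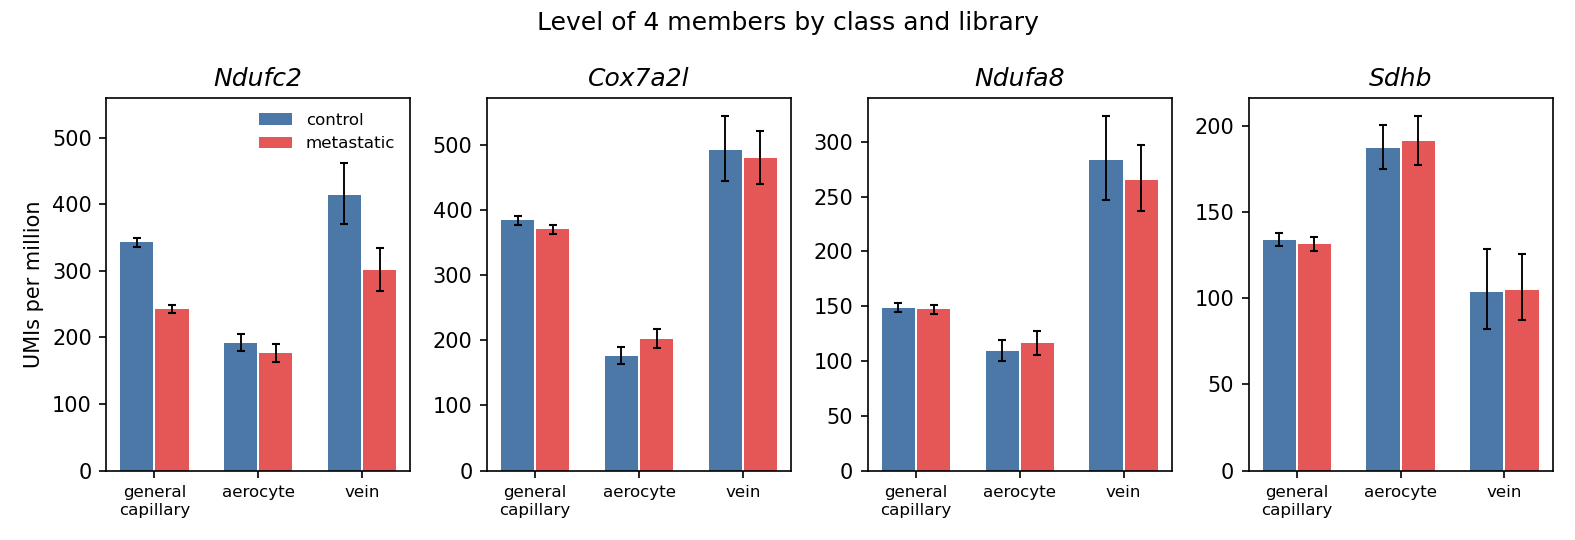
Level in CPM (y axis, from 0) of Ndufc2, Cox7a2l, Ndufa8 and Sdhb in gCap, aerocyte and vein barcodes of the control and metastatic libraries. Bars are single libraries and error bars exact Poisson intervals; Ndufc2 is lower in the metastatic library in gCap and vein barcodes, Cox7a2l and Ndufa8 are lowest in aerocytes and highest in veins, and Sdhb runs the other way.

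The members are short genes. Over the 78 counted in gCap barcodes the median coding length was 144 codons and the median transcript 863 bases, against 460 codons and 3001 bases over 10776 coding genes with as many UMIs (GENCODE M21). In the last 300 bases of their transcripts, where 3′ reads fall, 5 of 85 members matched another annotated gene at 95% identity or more. For Cox6a1, Cox7c and Atp5g2 this was a pseudogene copy. For Uqcrc2 (Pdzd9, on the other strand) and the second Atp5o entry (Donson, on the same strand) it was a gene that overlaps the member itself. On the same strand 7 entries overlapped another counted gene, Cox4i1 and Ndufb2 among them. Counts of these 7 and of the members with a pseudogene copy are less certain.

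In aerocytes the subunits made in the mitochondrion were lower against gCap by more than the nuclear ones. The 13 mitochondrially encoded genes held 2.94% of gCap UMIs in control and 2.90% in metastatic, but 1.99% and 2.05% in aerocytes, a log2 ratio of aerocyte over gCap of -0.56 (-0.57 to -0.55) and -0.50 (-0.51 to -0.49), where the nuclear members had -0.03 in both. In veins the mitochondrial set held 3.04% and 3.15%, and both sets were higher than in gCap (mitochondrial 0.05 and 0.12, nuclear 0.14 and 0.22). All 13 were lower in aerocytes in both libraries, and 12 were past 1.2-fold, where 17.4% of all genes were past 1.2-fold lower. The ATP synthase genes mt-Atp8 (-0.81 and -0.70) and mt-Atp6 (-0.75 and -0.67) were lowest, the complex IV genes mt-Co1 (-0.69 and -0.64), mt-Co2 (-0.68 and -0.61) and mt-Co3 (-0.47 and -0.39) varied, and mt-Cytb of complex III (-0.31 and -0.25) was nearest to 0 in the metastatic library. UMIs of mitochondrial over nuclear subunits stood at 1.95 and 1.89 in gCap, 1.82 and 1.76 in veins and 1.35 and 1.36 in aerocytes. The cytosolic ribosomal proteins were lower in aerocytes as well, with 77 of 83 past 1.2-fold lower in aerocytes in both libraries (medians -0.85 and -0.75), and the proteasome the other way, with 23 of 37 higher and 1 lower (0.33 and 0.38), where 29.1% of all genes were higher and 17.4% lower. UMIs per barcode of the mitochondrial subunits were 188 and 194 in gCap and 147 and 153 in aerocytes, whose barcodes held more UMIs in all.

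Other genes of energy metabolism were compared between the libraries in gCap barcodes in the same way. Of 15 carriers and transporters 1 was past 1.2-fold, Ucp2, an inner membrane carrier tied to substrate use, with 1471 CPM (47223 UMIs) in control and 977 CPM (29607 UMIs) in metastatic (log2 -0.59, -0.61 to -0.57), while the ADP/ATP carriers Slc25a4 (8358 and 7866 UMIs) and Slc25a5 (6978 and 6841 UMIs) lay within 1.2-fold. Ucp2 had 1334 and 879 CPM in aerocytes (-0.60) and 1001 and 796 CPM in veins (-0.33). Of 13 glycolysis genes 5 were higher and 0 lower, where 13.7% and 7.91% of all genes were. The 5 were Ldha, which makes lactate (104 and 135 CPM, 0.37), Hk1 (0.32), Pfkl (0.30), Pfkp (0.30) and Pkm (145 and 174 CPM, 0.27). All 13 glycolysis genes were above 0 with a median of 0.15, where 6130 of all 11220 genes were above 0 with a median of 0.02. In aerocytes 1 of 12 was higher (12.1% of all genes) with a median of 0.03, and in veins 3 of 8 were higher (18.1% of all genes) with a median of 0.19.

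Assembly factors, which build the complexes without staying in them, had 4 higher and 1 lower of 46, both smaller shares than the 13.7% and 7.91% of all genes. These were Uqcc2 of complex III (41.5 and 57.3 CPM, 0.46), Ndufaf2 (888 and 1152 UMIs, 0.46) and Ndufaf4 (34.2 and 43.6 CPM, 0.35) of complex I, Sdhaf3 (194 and 230 UMIs, 0.33) and, lower, Coa7 (397 and 288 UMIs, -0.38). Of 11 regulators of mitochondrial genes, 1 was higher, Pprc1, a coactivator of the PGC-1 family (243 and 407 UMIs, 0.83, 0.60 to 1.06), and Tfam, the mitochondrial transcription factor, had 34.5 and 36.1 CPM. Of 14 citric acid cycle genes, 7 pyruvate dehydrogenase genes and the 13 mitochondrially encoded subunits, 0 passed 1.2-fold in either direction, and of 77 mitochondrial ribosome genes 4 were higher and 0 lower. Beside these values, red cell markers had 1959 and 824 CPM, epithelial markers 1686 and 992 CPM and platelet markers 176 and 272 CPM in the gCap barcodes, and their part in the differences was not tested.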

How the data were processed

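The authors deposited UMI counts per gene and barcode for every listed barcode of 2 10x Genomics 3′ libraries, made with Cell Ranger (3.1.0 per the matrix header) on mm10. Members and gene lists were chosen with earlier results of these data known. From the counts, UMIs were summed over the barcodes of each class, as the report gives it, with Python 3.11.15, numpy 2.4.6 and scipy 1.17.1. Each ratio has an exact conditional binomial interval and each level an exact Poisson interval (95%), which cover counting error only. Called means past 1.2-fold among genes with 100 or more UMIs over both libraries. Cells are not replicates, and p-values were not computed. No doublet caller was run. Barcodes of several classes were left out instead. Libraries held 67929614 and 64733724 UMIs. Named members were sister isoforms, core subunits of complexes I and II, the 5 highest levels, the 5 highest and lowest gCap ratios (3 in other classes) and the 5 most extreme aerocyte contrasts either way. Others were chosen after their values were seen. Alternatives changed the class rule, filters, scaling (TMM from edgeR 4.0.16), weighting, free RNA and the fold. The ratio and its interval were tested only on simulated Poisson counts, the model that the interval assumes, so spread between barcodes was not covered. The variance of member UMIs per barcode, over its Poisson value, was 4.06 in control and 4.51 in metastatic gCap barcodes. It was 4.85 and 5.08 in aerocyte and 5.78 and 7.35 in vein barcodes, a spread that the intervals leave out. Copies were searched with blastn 2.17.0+, and positions came from GENCODE M21. One named member is not reported here.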

Additional observations from a re-analysis of the deposited data

Results flagged for a closer look

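Ndufv3 pointed in opposite directions in 2 classes: its log2 ratio of metastatic over control was -0.33 in aerocyte barcodes (486 and 319 UMIs) and 0.43 in vein barcodes (69 and 140 UMIs), with both intervals clear of 0. The difference between the classes was not tested. With barcodes of several classes placed in the listed order, the values were -0.06 and 0.26. In gCap barcodes it was 0.11.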

How the results depend on the processing

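No paired analysis was possible because each group held 1 library, and for the same reason no library could be left out. Of 936 alternative values of named members, 862 moved by less than their counting interval, 73 moved by more, and 1 that was past 1.2-fold changed sign: Ndufv1 in vein barcodes, -0.37 in the report, was 0.021 with classes in the listed order. Of 203 alternative sums, medians and counts, 162 stayed within their limits. A sum was held to its counting interval and a count to a factor of 1.5. A median was held to the counting interval of the 1 member nearest to it, and no median moved beyond that. This interval is wide for a median over many members, so staying within it shows little. Medians of metastatic over control ran from 0.0038 to 0.069 in gCap, -0.0041 to 0.067 in aerocytes and 0.077 to 0.150 in veins. Causes were not tested. With no UMI minimum, 8 of 80 members in aerocytes were past the fold in either direction (of all genes, 26.2% higher and 18.9% lower). In gCap 6 of 82 were (21.5% and 16.8%). At 1000 UMIs, an alternative added after the data were seen, 0 were in aerocytes (4.43% and 6.81%). In gCap 1 was under TMM (12.4% and 8.95%) and 1 under median-ratio scaling (12.5% and 8.89%). With free RNA subtracted 5 were in gCap (17.9% and 9.61%). With classes in the listed order 3 were in veins (15.8% and 14.4%). At 1.5-fold 0 were in gCap (3.38% and 1.80%), 0 in aerocytes (1.88% and 1.40%) and 0 in veins (4.30% and 3.35%). The amount of free RNA was set from barcodes without markers of other cells, a choice made after the data were seen.

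The summed log2 ratio of metastatic over control in gCap was -0.0021 under TMM, -7.3e-05 under median-ratio scaling, 0.066 with free RNA subtracted and 0.012 without barcodes with markers of other cells. In aerocytes it was 0.0042 in the listed order, 0.066 with free RNA subtracted and -0.0087 without those barcodes, in arteries 0.177 without them, and in veins 0.064 in the listed order. Aerocyte over gCap in control was -0.047 outside the mitochondrial genome, -0.146 under TMM, -0.147 under median-ratio scaling and -0.072 with equal weight per barcode, and in metastatic -0.050 in the listed order, -0.136, -0.139 and -0.055 under the last 3 of these, and -0.048 without barcodes with other markers. Artery over gCap in control was -0.166 under TMM, -0.171 under median-ratio scaling and -0.019 with equal weight, and in metastatic 0.057 in the listed order, -0.034, -0.027 and 0.073. Vein over gCap in control was 0.197 under TMM, 0.202 under median-ratio scaling and 0.178 with free RNA subtracted, and in metastatic 0.164 in the listed order, 0.290 under TMM and 0.299 under median-ratio scaling. With 12 and 22 barcodes, arteries allow little beyond the sum.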
